A study of Homo sapiens with 32 samples.

Results

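GOLGA8A and GOLGA8B are a pair of nearly identical genes on human chromosome 15 that encode coiled-coil proteins of the golgin family. They were chosen by a measured value, the high ratio of Chtop to Nxf1 tags in these same libraries, and they are 2 of the 64449 annotated genes considered. The tags counted are those on the minus strand of hg19 at chr15:34671136-34730009 for GOLGA8A (ENSG00000175265) and at chr15:34817296-34880704 for GOLGA8B (ENSG00000215252). A tag is 1 deduplicated iCLIP read, placed at the base where UV light had linked protein to RNA. The spans held 919 tags for GOLGA8A and 626 for GOLGA8B over 12 libraries.

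The samples are labelled HEK293T, an established line of human embryonic kidney origin, and their protocol names FlpIn-293 cells, which take up a transgene at a prepared site. The 3 factor groups carried FLAG-tagged Alyref, Chtop or Nxf1 and the Control the FLAG tag alone. In the factor groups tetracycline induced expression over 48 h, at a dose of 10 ng/mL in Alyref and Chtop cells but of 5 ng/mL in Nxf1 cells. For the Control no dose and no induction time are given. Each group had 3 libraries. The number of tags in a library ran from 81307 to 631704 in the Alyref group, from 47052 to 538844 in the Chtop group, from 8134 to 179346 in the Nxf1 group and from 7017 to 46628 in the Control group. Replicate 1 was the shallowest library of every group. Levels are in CPM, which is what the count would be in a library of 1000000 tags. No RNA level enters these values, so the amount of an RNA and the contact per molecule cannot be told apart.

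TREX, a complex that prepares spliced mRNA for nuclear export, has Alyref and Chtop among its subunits, and Nxf1 is the receptor that carries mRNA through the nuclear pore. Golgins are long coiled-coil proteins that tether vesicles at the Golgi apparatus. The GOLGA8 genes belong to a family of copies spread over chromosome 15 by segmental duplication, and several copies are pseudogenes. For copies this alike, a short read often matches more than 1 place, and the authors kept only reads with a single match.

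The canonical GOLGA8A transcript has 25 exons, of which the first 9 are noncoding, 15 are coding and the last is 2546 nt long. GOLGA8B has 24 exons, with 8 noncoding, 15 coding and a last exon of 2740 nt. In both genes the last exon begins with 200 nt of coding sequence and goes on as 3′ UTR. The 15 coding exons before the last were identical between the copies over all 1686 nt. The 7 upstream noncoding exons that could be paired by rank and length differed at 2 of 1045 nt. The last exons differed more, with 54 mismatches in 2542 aligned bases, which is 97.9% identity, and 4 short gaps of 15 bases in all. GOLGA8B reached 187 bases beyond the end of GOLGA8A.

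A base was called placeable when the 35 bases after it, where the read of a tag there begins, occur once in the genome sequence. Of the GOLGA8A span 20.2% was placeable, and of the GOLGA8B span 24.1%. No base of the 15 coding exons was placeable in either gene, while 43.4% of the GOLGA8A last exon and 44.8% of the GOLGA8B last exon were. Introns were placeable at 19.7% of bases in both genes. A low count in the coding exons is therefore no measure of contact there. Placeable bases held 67.8% of the GOLGA8A tags and 68.2% of the GOLGA8B tags, and the remaining tags lay at bases that were not placeable. Reads of another length, spliced reads or reads that the authors placed at a deletion may have a single match there. Which of these gave the tags was not tested. With 25 bases the share of tags was 51.9% and 51.0%, and with 50 bases it was 82.5% and 79.6%.

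The sequences around the 2 most tagged bases of each copy, with their counterparts in the other copy, show how few differences set the copies apart. Each line gives 30 bases 5′ to 3′ in the transcript, from the minus strand of GRCh37, with the crosslinked base at position 5 and the bases that differ between the copies in capitals.
GOLGA8A chr15:34671884-34671913: gatatgtaGgtgtgctccctggggtgggga
GOLGA8B chr15:34818103-34818132: gatatgtaTgtgtgctccctggggtgggga
GOLGA8B chr15:34818292-34818321: aGtttcagtcagggacataTtttgtgcaat
GOLGA8A chr15:34672073-34672102: aTtttcagtcagggacataCtttgtgcaat
GOLGA8B chr15:34819302-34819331: actttgtaatatgccactAtgagtactgac
GOLGA8A chr15:34673081-34673110: actttgtaatatgccactGtgagtactgac
GOLGA8A chr15:34673113-34673142: tgcggtttgccctcaagtgtgcactgttta
GOLGA8B chr15:34819334-34819363: tgcggtttgccctcaagtgtgcactgttta
All 4 of these bases lay in the 3′ UTR part of the last exons. The first GOLGA8A base, at position 1906 of the exon, had 5 tags from 4 libraries (2 Alyref, 3 Chtop) and its counterpart in GOLGA8B had 0. The 2 copies differ there by G9T, counted from the 5′ end of the line with the GOLGA8A base first. The GOLGA8B base at position 1719 of its exon had 4 tags (1 Alyref, 3 Chtop), and its counterpart in GOLGA8A also had 4. The GOLGA8B base at position 709 had 4 tags against 2 in GOLGA8A, with A19G between the lines, the GOLGA8B base first. The fourth line pair is identical over all 30 bases, and the GOLGA8A base at its position 5 had 5 tags, all from Chtop, against 1 in GOLGA8B. That base was placeable with 50 bases of read but not with 35. No single base was dominant, since 399 of the 563 tagged bases of the GOLGA8A last exon had 1 tag and 329 of 427 did in GOLGA8B.

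In GOLGA8A the Alyref libraries held 10, 149 and 145 tags, which is 123, 236 and 240 CPM for replicates 1, 2 and 3. The Chtop libraries held 27, 283 and 289 tags, or 574, 525 and 673 CPM. Every Chtop library thus lay above every Alyref library. The Nxf1 libraries held 1, 3 and 8 tags (123, 25.2 and 44.6 CPM), and the Control libraries 1, 1 and 2 tags (143, 21.4 and 54.1 CPM). The CPM of Nxf1 replicate 1 and Control replicate 1 rest on 1 tag each. A library with 0 tags allows up to 4.75 CPM in Alyref replicate 2, the deepest, and up to 428 CPM in Control replicate 1, the shallowest, taking 3 tags as the limit.

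In GOLGA8B the Alyref libraries held 15, 89 and 98 tags (184, 141 and 162 CPM) and the Chtop libraries 14, 203 and 201 tags (298, 377 and 468 CPM). The Nxf1 libraries held 3, 1 and 1 tags (369, 8.39 and 5.58 CPM), and the Control libraries held 1, 0 and 0. Chtop was again above Alyref in every library, while Nxf1 replicate 1, with 3 tags in a library of 8134, fell within the Chtop range. The group means were 163 ± 21.8 CPM for Alyref and 381 ± 85.3 CPM for Chtop (SD, n = 3). For GOLGA8A they were 200 ± 66.5 CPM and 591 ± 75.2 CPM (SD, n = 3).

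**Figure D1:**
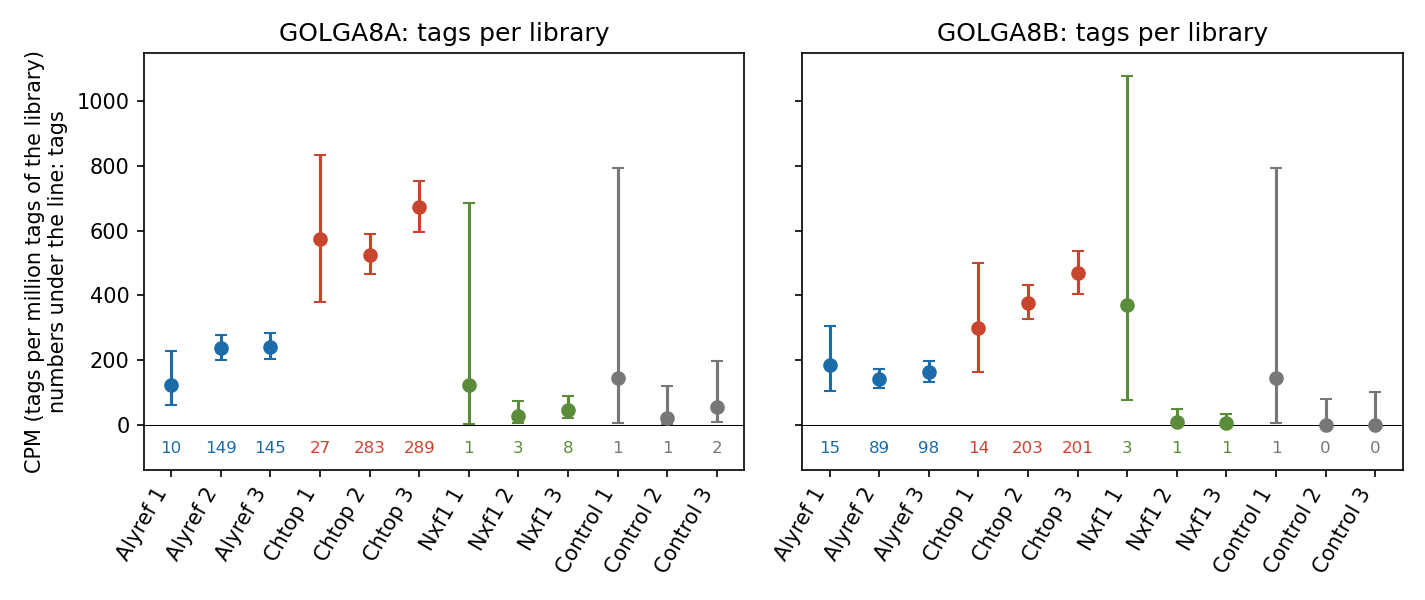
CPM of GOLGA8A (left) and GOLGA8B (right) in each of the 12 libraries, as points with exact 95% Poisson intervals that cover counting error only, and the number of tags under the zero line. The 3 Chtop libraries lie above the 3 Alyref libraries in both genes, and the intervals of Nxf1 1 and Control 1 span most of the axis.

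The values that chose these genes are given as a description. With replicates pooled, Chtop held 15.1 times the CPM of Nxf1 in GOLGA8A (599 against 12 tags, exact 95% interval 8.57 to 29.3, counting error only) and 25.2 times in GOLGA8B (418 against 5 tags, 10.7 to 78.2). In the fit over all genes the log2 differences were 3.71 and 4.30, ranks 2 and 1 of 3240 genes, where the median gene was at 0.02. Leaving out Nxf1 replicate 1 or 3 moved these most, as given in the closing section. Chtop against Alyref gave log2 differences of 1.61 for GOLGA8A and 1.45 for GOLGA8B, with 1.39% and 2.41% of genes higher. Alyref against Nxf1 gave 2.10 for GOLGA8A and 2.85 for GOLGA8B, ranks 17 and 1 of 3240, so Alyref too was high against Nxf1. Nxf1 against Control, on 12 against 4 tags and 5 against 1 tag, gave -0.03 and 0.75. The pooled ratio of Nxf1 to Control was 0.887 (0.269 to 3.77) for GOLGA8A and 1.48 (0.165 to 69.9) for GOLGA8B, so that a difference was not detectable at this depth. Each of these comparisons shares libraries with the others.

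The comparison of Alyref with Control does not enter the ratio that chose the genes. Pooled, Alyref held 5.23 times the Control CPM in GOLGA8A (304 against 4 tags, 2.02 to 19.3) and 13.9 times in GOLGA8B (202 against 1 tag, 2.47 to 552). The log2 differences were 2.06 ± 0.66 (SE) and 3.59 ± 1.097 (SE), against a median of 0.16 over all genes. Neither passed edgeR's quasi-likelihood test after Benjamini-Hochberg adjustment over 3240 genes, with adjusted p of 0.120 for GOLGA8A and 0.106 for GOLGA8B. In that comparison 4 genes were called higher in Alyref, 0.123% of those tested, and 5 lower, 0.154%. With the replicate number as a block, the edgeR adjusted p was 0.109 for GOLGA8A and 0.0459 for GOLGA8B. In that fit 31 genes were higher and 41 lower. By their labels replicates 1 and 3 shared HiSeq lanes, so the block does not stand for the lanes alone. Filtered and fitted without the Chtop libraries, the group the genes were picked for, the log2 differences were 2.07 and 3.54, with edgeR adjusted p of 0.0745 and 0.0922. In that fit 3 Alyref libraries met the minimum count for GOLGA8A but 2 for GOLGA8B, which passed with the help of a Nxf1 or Control library. The Nxf1 libraries, whose tags enter the ratio that chose the genes, stayed in it. With the 6 Alyref and Control libraries alone both genes fell under the minimum count and were not tested. Leaving out 1 library gave edgeR adjusted p from 0.0467 to 0.435 for GOLGA8A and from 0.0294 to 0.453 for GOLGA8B. GOLGA8A was under 0.05 without Alyref replicate 1, and GOLGA8B without Alyref replicate 1 (0.0294), Chtop replicate 1 (0.0337), Nxf1 replicate 1 (0.0408) or Control replicate 1 (0.0448). Both were highest without Control replicate 3, and the GOLGA8A difference was lowest, 1.54, without Control replicate 2.

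Within the genes, most tags were in the last exon, and Chtop tags more so than Alyref tags. In GOLGA8A the last exon held 8 of 10, 107 of 149 and 100 of 145 Alyref tags (80.0%, 71.8% and 69.0%), against 23 of 27, 266 of 283 and 276 of 289 Chtop tags (85.2%, 94.0% and 95.5%). In GOLGA8B it held 10 of 15, 67 of 89 and 74 of 98 Alyref tags (66.7%, 75.3% and 75.5%), against 14 of 14, 182 of 203 and 189 of 201 Chtop tags (100%, 89.7% and 94.0%). The 3 Chtop libraries were above the 3 Alyref libraries in both copies. The mean last-exon share was 73.6% ± 5.73 for Alyref and 91.6% ± 5.57 for Chtop in GOLGA8A, and 72.5% ± 5.04 and 94.6% ± 5.19 in GOLGA8B (SD, n = 3). Of the few Nxf1 tags, 5 of 12 in GOLGA8A and 3 of 5 in GOLGA8B were in the last exon.

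**Figure D2:**
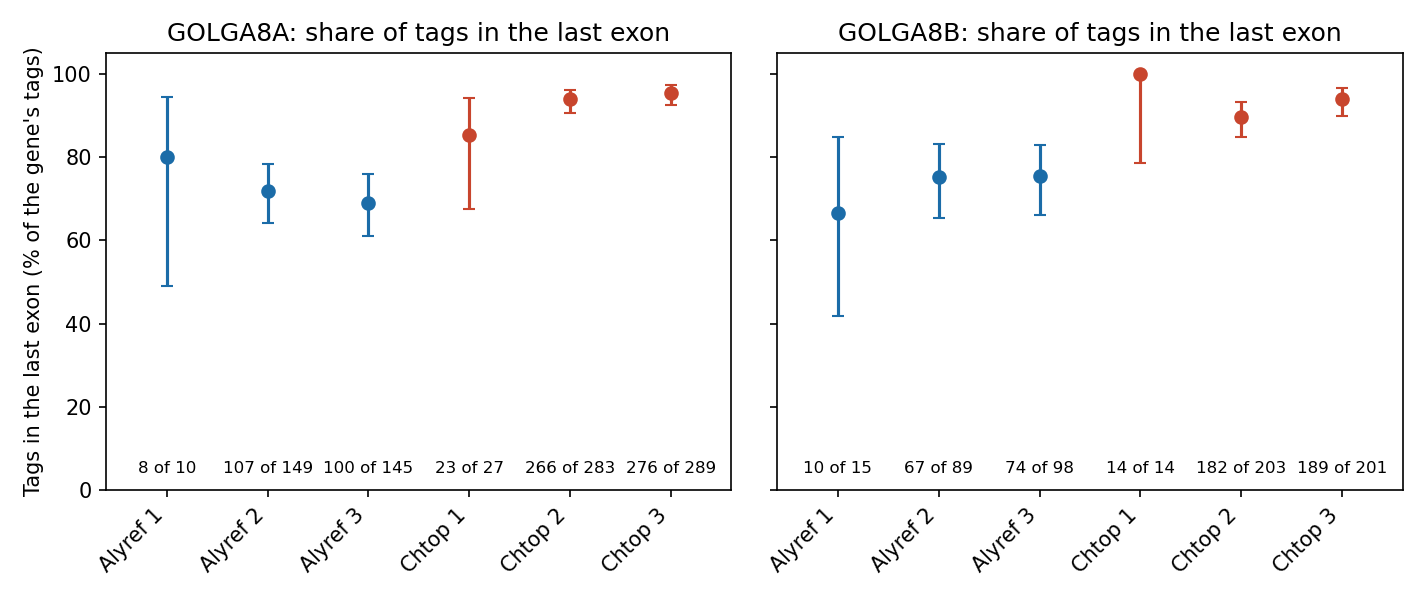
Share of the tags of GOLGA8A (left) and GOLGA8B (right) that lay in the last exon, in percent, for each Alyref and Chtop library, with 95% Wilson intervals and the tags behind each point. The Chtop points are all above the Alyref points, from 85.2% to 100% against 66.7% to 80.0% over both genes.

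The last exon was set against the rest of the same gene, so that the level of the gene itself cancels. This choice was made after the values were seen and on genes picked for their Chtop tags, so the values of the pair are a description and carry no p. On the log2 scale the last exon to rest ratio was higher in Chtop than in Alyref by 2.83 ± 0.51 (SE) in GOLGA8A and by 2.06 ± 0.55 (SE) in GOLGA8B. The same direction was common among genes. Over the 3011 genes tested with edgeR the median difference was 1.52, and 46.3% were called higher and 0.0664% lower in Chtop. These calls were 1394 genes and 2 genes, and with the replicate number as a block they were 985 and 0. Of the 3011 genes 5.35% had a larger difference than GOLGA8A and 26% a larger one than GOLGA8B. The rest of a gene includes its introns, which held few tags in the pair, so these ranks set unlike rests side by side. Against the other canonical exons only, the differences were 2.78 ± 0.44 (SE) and 2.17 ± 0.49 (SE). There 388 genes were called higher and 5 lower, and the rank of the pair was not taken. The level of the share was less usual, since 0.413% and 0.318% of 3148 genes with at least 100 Alyref tags had a higher last-exon share than GOLGA8A and GOLGA8B, where the median gene had 10.7%. For Chtop these were 0.464% and 1.02% of 2157 genes, with a median of 32.5%. These shares take each gene as mapped, and the coding exons of the GOLGA8 pair were not placeable.

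The comparison planned for these genes set exons of any isoform against introns. Chtop was higher than Alyref in the exon to intron ratio by 3.29 ± 0.99 (SE) on the log2 scale in GOLGA8A and by 1.62 ± 1.07 (SE) in GOLGA8B, where the median of all genes was 1.01. Neither passed, with edgeR adjusted p of 0.0586 and 0.323, while 29 of 3125 genes did, 0.928%. The pair was picked for its Chtop tags, nearly all of them in exons. The p-values of the pair in this comparison are therefore not independent of that choice and are given as a description. With the replicate number as a block the edgeR adjusted p was 0.284 and 0.448, and 0 genes passed. GOLGA8A passed with exons of the canonical transcript (edgeR adjusted p 0.0458), without Chtop replicate 2 (0.0323) and with a fit on the 6 Alyref and Chtop libraries alone (0.0193). It was at 0.182 without a filter, and without Alyref replicate 2, Alyref replicate 3 or Chtop replicate 3 it was at 0.484, 0.724 and 0.402. Introns held few tags to compare. In the GOLGA8A span exons of any isoform held 280 of 304 Alyref and 590 of 599 Chtop tags. In the GOLGA8B span they held 193 of 202 and 412 of 418. By the canonical transcript, introns held 35 Alyref and 14 Chtop tags in GOLGA8A and 14 and 7 in GOLGA8B. Alyref replicate 1 had none in either gene.

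The upstream noncoding exons took the next largest share, and here Alyref was the higher. They held 48 of 304 Alyref tags in GOLGA8A (15.8%) and 31 of 202 in GOLGA8B (15.3%), against 19 of 599 (3.17%) and 19 of 418 (4.55%) of the Chtop tags. Exon 2 of GOLGA8A held 12 Alyref and 5 Chtop tags, its exon 1 held 11 and 3, and exon 6 held 9 and 0. Exon 4 of GOLGA8A went the other way, with 2 Alyref and 6 Chtop tags, as did exon 3 with 0 and 3. In GOLGA8B exon 3 led with 9 and 6 tags, followed by exon 1 with 7 and 7. The coding exons before the last held 6 Alyref tags and 1 Chtop tag in GOLGA8A and 6 and 2 in GOLGA8B. Of the 98 exons, introns and outer stretches of both genes, 39 held any tag.

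Scaled to placeable length, the upstream exons and the last exon had close tag densities for Alyref in GOLGA8A and unlike ones for Chtop. The upstream exons have only 246 placeable bases in GOLGA8A and 174 in GOLGA8B, and exon 6 of GOLGA8A has none. Placeable bases were judged on the unspliced genome, so spliced reads in short exons are not covered. Alyref had 92.6 CPM per placeable kb in the upstream noncoding exons of GOLGA8A (30 tags) and 97.0 in the last exon (141 tags). Chtop had 48.0 (12 tags) and 360 (404 tags) in the same parts. In GOLGA8B the values were 48.0 and 63.7 for Alyref, from 11 and 103 tags, and 73.6 and 226 for Chtop, from 13 and 282 tags. Introns were lower by far, at 1.46 CPM per placeable kb for Alyref (20 tags) and 0.662 for Chtop (7 tags) in GOLGA8A. In GOLGA8B they were at 0.511 and 0.189, from 7 and 2 tags, too few to compare the factors. Over all libraries the density of exons of any isoform was above that of introns by 7.09 on the log2 scale in GOLGA8A and by 8.29 in GOLGA8B, given as a description. The SD of this value between single Alyref and Chtop libraries was 2.05 and 0.478, leaving out libraries where it could not be taken.

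**Figure D3:**
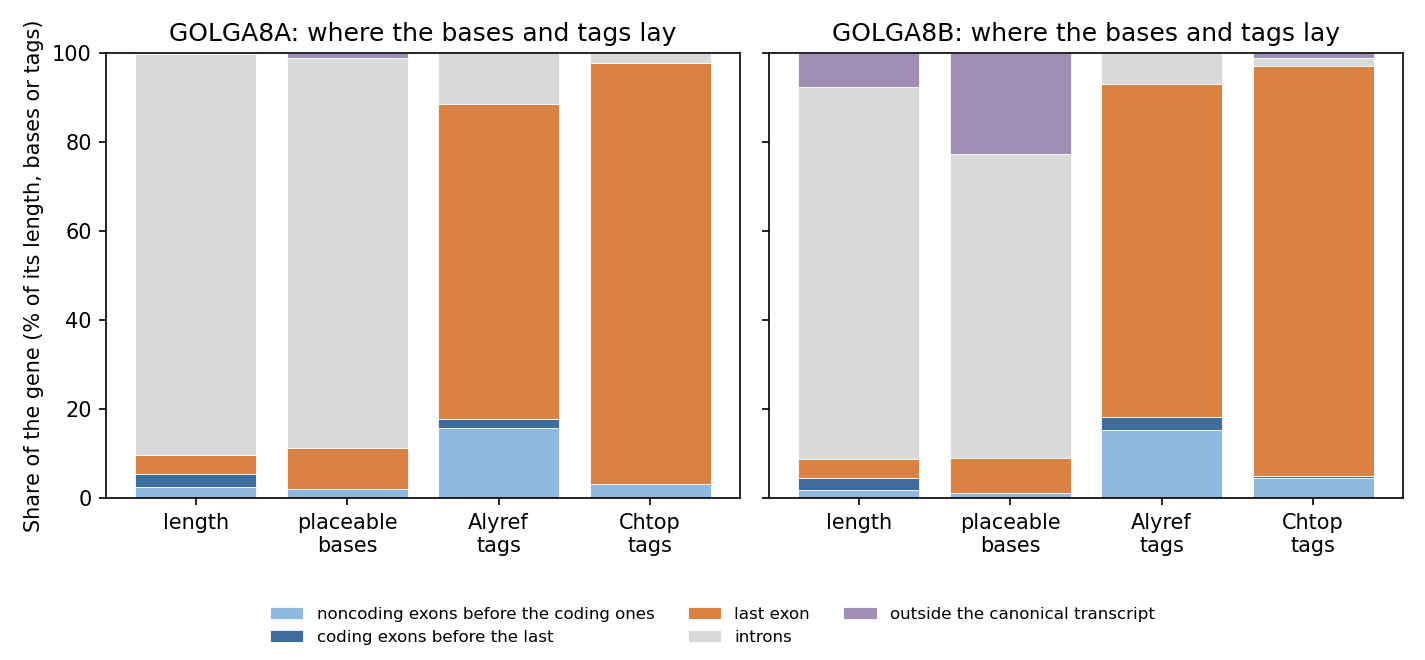
Stacked shares, in percent, of the length, of the placeable bases, of the pooled Alyref tags and of the pooled Chtop tags that lay in each kind of part, for GOLGA8A (left) and GOLGA8B (right). The last exon is a small part of the length but takes 70.7% and 94.3% of Alyref and Chtop tags in GOLGA8A and 74.8% and 92.1% in GOLGA8B, and the coding exons have no placeable base.

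Intron 2 of GOLGA8A, its longest, held 20 Alyref, 9 Chtop and 4 Nxf1 tags, and intron 11 held 8, 3 and 1. Another annotated gene of the same strand, ENSG00000279092, lies within intron 2. Tags in it are part of the intron 2 counts and cannot be assigned to GOLGA8A alone. In GOLGA8B intron 10, which pairs with intron 11 of GOLGA8A, held 3, 6 and 2. The introns of this pair are both 1091 nt long and differ at 1 base. MIR1233-1 fills intron 22 of GOLGA8A and MIR1233-2 intron 21 of GOLGA8B, both 82 nt and identical between the copies, and neither intron held a tag or a placeable base. 5 Chtop tags lay upstream of the canonical start of GOLGA8B but within the gene span. Within 5 kb past the 3′ ends the factor libraries held 0 tags in both genes, which allows up to 2.80 CPM for pooled Alyref and 3.63 CPM for pooled Chtop (exact 95% upper limits). On the opposite strand of the spans there were 3 Chtop tags, all in GOLGA8B, and 1 Control tag, in GOLGA8A.

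Along the last exon, the tags of both factors were spread over nearly the whole length. In GOLGA8A the median Alyref tag was 1556 nt and the median Chtop tag 1573 nt from the start of the exon, with quartiles at 781 and 1906 nt for Alyref and 833 and 1996 nt for Chtop. In GOLGA8B the medians were 1436 and 1550 nt. The profiles of the factors therefore had similar centres. In 4 equal stretches of the GOLGA8A exon, from first to last, Alyref had 31, 65, 67 and 52 tags and Chtop 85, 152, 165 and 163. The share of placeable bases went up over the same stretches, at 25%, 35%, 38.8% and 74.6%. In GOLGA8B Alyref had 29, 44, 43 and 35 tags and Chtop 65, 103, 124 and 93. Placeable there were 26.6%, 31.5%, 40.7% and 80.4% of bases. Relative to placeable bases, the last stretch thus had the fewest tags of both factors in both genes. The 200 coding bases held 5 Alyref and 14 Chtop tags in GOLGA8A and none in GOLGA8B. In windows of 100 nt Chtop was highest at 1701 to 1800 nt of GOLGA8A, with 47 tags or 46.3 CPM, where Alyref was highest too with 20 tags. In GOLGA8B Chtop was highest at 1501 to 1600 nt with 29 tags and Alyref at 501 to 600 nt with 13.

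**Figure D4:**
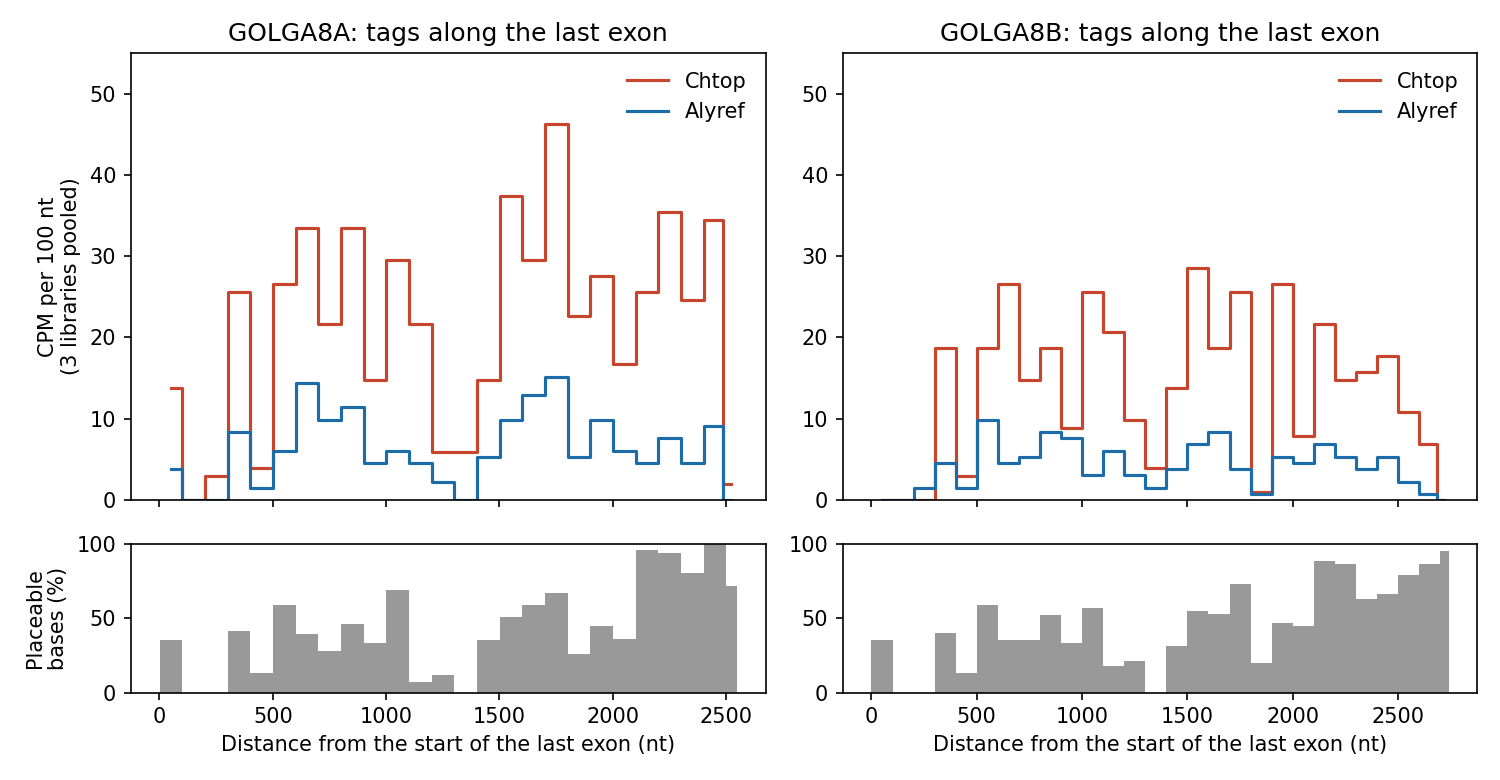
Tags along the last exon of GOLGA8A (left) and GOLGA8B (right) as CPM in windows of 100 nt, with 3 libraries pooled for Alyref and for Chtop, above the share of placeable bases in the same windows; the horizontal axis is the distance from the start of the exon in nt. Chtop peaks at 46.3 CPM in GOLGA8A and 28.6 CPM in GOLGA8B, and several windows with few tags of both factors have few placeable bases. The end of the GOLGA8B exon differs: windows 2601 to 2700 and 2701 to 2740 nt, 86% and 95% placeable, hold 7 and 0 Chtop tags.

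The bases of both factors overlapped in part. In the GOLGA8A last exon Alyref tags lay on 202 bases and Chtop tags on 449, of which 92 were the same, 45.5% of the Alyref and 20.5% of the Chtop bases. In GOLGA8B 53 were the same, 35.8% of 148 Alyref and 16.1% of 330 Chtop bases. Bases tagged this densely overlap by chance too, with 1104 placeable bases in the GOLGA8A last exon and 1228 in that of GOLGA8B. The overlap was not tested against what density alone gives, so it is not read as shared sites. The base itself was often uracil, which crosslinks readily under UV light. Uracil stood at 57.7% of Alyref and 57.5% of Chtop tags in the GOLGA8A last exon, and at 64.2% and 61.0% in GOLGA8B, while 32.2% and 32.5% of the bases of these exons are uracil. The Wilson intervals of these shares ran from 51.0% to 64.1% and from 53.4% to 61.5% in GOLGA8A and from 56.3% to 71.4% and from 56.1% to 65.8% in GOLGA8B and overlapped between the factors.

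The share of GOLGA8A in the tags of both copies was taken in each library. GOLGA8A had 40.0%, 62.6% and 59.7% of the tags of both genes in Alyref replicates 1, 2 and 3, and 65.9%, 58.2% and 59.0% in the Chtop libraries. Of these Alyref and Chtop libraries only Alyref replicate 1, with 25 tags in both genes, had fewer GOLGA8A than GOLGA8B tags. The mean was 54.1% ± 12.3 for Alyref and 61.0% ± 4.20 for Chtop (SD, n = 3), a difference of 6.93 percentage points (exact permutation test, two-sided, p = 0.6). With 3 libraries against 3 the smallest p is 0.1, so this test could not pass and does not show that the shares are equal. No Nxf1 library reached the 10 tags needed. At the 980 aligned bases of the last exons that were placeable in both copies, GOLGA8A had 508 tags and GOLGA8B 337, a GOLGA8A share of 60.1%. There the deeper libraries gave 60.2% and 59.4% for Alyref and 59.5% and 60.9% for Chtop. Of the aligned bases, 562 had a tag in GOLGA8A, 411 in GOLGA8B and 208 in both. How many would be shared by chance was not tested.

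**Figure D5:**
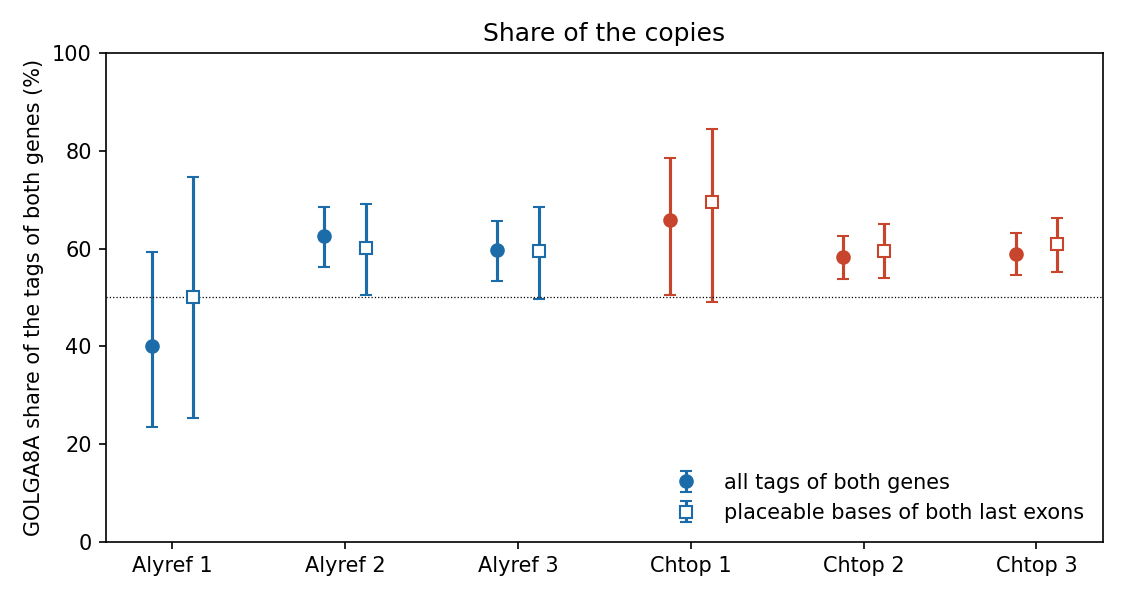
Share of GOLGA8A in the tags of both genes, in percent with 95% Wilson intervals, for each Alyref and Chtop library, over all tags (filled circles) and over the aligned last-exon bases placeable in both copies (open squares). The dotted line marks 50%, and the 4 deeper libraries lie between 58.2% and 62.6%.

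Other copies of the family held few tags. Of 43 other annotated GOLGA8 and GOLGA6 genes and pseudogenes, 17 held 83 tags in all, against 1545 for the pair. GOLGA8S led with 5 Alyref and 14 Chtop tags and none of Nxf1 or Control, and GOLGA8H had 4, 5, 1 and 0. GOLGA8J had 1 Alyref and 7 Chtop tags, and GOLGA8UP 3 Alyref, 1 Chtop and 2 Nxf1 tags. None passed the filter on low counts. Counts of all these copies depend on which reads have a single match.

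Golgins and Golgi tethers outside the family are described beside the pair. All 33 genes of that list held tags and 9 were tested. In the comparison of Alyref with Control none of the 9 was called by edgeR or DESeq2 and 0 had an unadjusted p under 0.05. Among all 3240 genes DESeq2 called 14, and 334 were higher and 176 lower at an unadjusted p under 0.05, so that 0 of 9 is near the background. The median log2 difference of Alyref from Control was -0.09, against 0.16 over all genes. The median log2 difference of Chtop from Nxf1 was -0.15, and the highest was 1.61. That highest value belonged to GOLGA3, a cytoplasmic golgin, with 172 ± 21.6 CPM in Alyref, 326 ± 82.3 in Chtop, 108 ± 21.3 in Nxf1 and 55.6 ± 48.2 in Control (SD, n = 3). Its Alyref level was above Control by 1.03 ± 0.55 (SE) on the log2 scale (edgeR adjusted p = 0.361). CUX1, whose locus also encodes the golgin CASP, BICD1, a dynein adaptor, and COG5, a subunit of the tethering complex of the Golgi, differed in the same comparison by -0.57, -0.55 and -0.09, with edgeR adjusted p of 0.493, 0.560 and 0.938.

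Neighbouring genes had fewer tags than the pair. Within 500 kb of either gene lie 44 other annotated genes, of which 18 held tags and 1 was tested, the helicase AQR of the spliceosome. AQR had 98.0 ± 42.8 CPM in Alyref, 102 ± 40.7 in Chtop, 92.2 ± 26.7 in Nxf1 and 101 ± 44.5 in Control (SD, n = 3), and its log2 difference of Alyref from Control was 0.17 ± 0.59 (SE, edgeR adjusted p = 0.923). LPCAT4, an acyltransferase of phospholipid synthesis, had 84 Alyref, 69 Chtop, 8 Nxf1 and 3 Control tags. KATNBL1, a regulator of the microtubule-severing protein katanin, had 54, 86, 13 and 5, and ZNF770, a zinc finger gene, had 40, 48, 16 and 1. These 3 were too low to be tested.

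Across the 12 libraries, the log2 CPM of the copies correlated at r = 0.853, as a description over points that share depth. Among 5917 other genes with at least 100 tags, the 5 most like the summed pair were BTAF1 (r = 0.947), NFAT5 (0.928), TUBGCP6 (0.921), MUC16 (0.917) and NT5DC3 (0.912). The closest, BTAF1, a regulator of TBP binding, had mean levels of 552 CPM in Alyref, 893 in Chtop, 269 in Nxf1 and 183 in Control. MUC16, a large cell-surface mucin, had 292, 819, 307 and 159 CPM. The summed pair had 362 ± 49.3, 971 ± 147, 192 ± 260 and 120 ± 144 CPM (SD, n = 3), so that its Nxf1 and Control means rest mainly on the 4 tags and 2 tags of replicate 1.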

How the data were processed

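The deposited values are counts of deduplicated iCLIP reads (tags) per crosslinked base and strand, 1 file per library. The authors removed phiX reads with Bowtie 1.1.2, moved random barcodes to read names and later collapsed duplicates by them (UMI-tools 0.5.3), used Reaper to trim and to split samples, and aligned to hg19 with STAR 2.4.2a, keeping uniquely mapped reads. They merged the lanes, so 32 lane runs gave 12 libraries. Because a tag is 1 barcode-distinct cDNA, intervals cover counting error only. Unused columns of per-sample values numbered 0.

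Genes, exons and sequences were taken from GENCODE release 44 lifted to GRCh37 and from the GRCh37 sequence, leaving out chrM, whose positions run past the reference. Tags in several genes of a strand (5.97% to 8.32% of a library) were left out of gene counts but kept in the members' spans. Placeable bases were found by counting every 35-base sequence of both strands (25 and 50 as alternatives). Tests used edgeR 4.0.16 in R 4.3.3 (TMM, filterByExpr, quasi-likelihood, all 12 libraries, Benjamini-Hochberg adjusted p under 0.05), for parts within a gene with the library as block. DESeq2 1.42.0, other scalings and filters, a replicate block and leaving out libraries were alternatives. Last exons were aligned with Biopython 1.88. Both members passed the filter of the fit on all 12 libraries, in which 3 Alyref libraries met the minimum for each, and passing it is no result. Nothing says that replicates are separate cultures, so p-values may measure technical spread. The labels tie each replicate number to a set of sequencing lanes that holds every group, and numbers 1 and 3 share HiSeq lanes. The fit with the number as a block is given beside each result it changes. Deviations of same-numbered libraries over 810 genes correlated at -0.30 to 0.45 and those of other numbers at -0.52 to 0.50. Named genes were the members, the 4 genes of each list with the highest mean CPM, the 5 most alike in log2(CPM + 1) and the most tagged parts and bases. The members and lists were chosen with earlier results of these data known.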

Additional observations from a re-analysis of the deposited data

How the results depend on the processing

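The directions for both genes held under every alternative run except the copy share, and calls changed as follows. For Alyref against Control (4 genes higher, 5 lower), the counts were 0 and 4 with DESeq2 size factors, 11 and 19 without TMM, 14 and 11 without a filter, 4 and 17 with the 6 libraries alone, where both members fell out under the filter, and 8 and 6 by DESeq2, which gave GOLGA8B no adjusted p. Without the Chtop libraries, an alternative chosen after seeing the data, they were 16 and 31. Scaling moved the median of all genes from 0.16 to 0.11 with DESeq2 size factors and to 0.36 without TMM. Leaving out 1 library gave 0 to 51 higher and 0 to 47 lower genes, with 0 and 0 without Alyref 2, Alyref 3 or Control 3, and log2 differences of 1.54 to 2.57 for GOLGA8A and 2.66 to 8.24 for GOLGA8B. The 8.24 was fitted with GOLGA8B at 0 in both remaining Control libraries and is no bound. Chtop against Nxf1 ranged from 3.33 to 4.22 for GOLGA8A (highest without Nxf1 3) and from 3.57 (without Nxf1 3) to 5.67 (without Nxf1 1) for GOLGA8B.

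Exon against intron was called in 29 genes higher and 0 lower; these were 69 and 1 with canonical exons (GOLGA8A 2.77), 4 higher without a filter and 146 with the 6 libraries alone (GOLGA8A 3.35), and 0 to 265 higher and 0 to 1 lower without 1 library. The differences without 1 library were 2.80 to 4.19 for GOLGA8A and 1.37 to 1.79 for GOLGA8B. Last exon against rest was called in 1394 genes higher and 2 lower, in 2409 and 6 with the 6 libraries alone, in 388 and 5 against other canonical exons only, and in 401 to 1665 and 0 to 1 without 1 library. The differences without 1 library were 2.58 to 3.07 for GOLGA8A and 1.74 to 2.56 for GOLGA8B, as a description. The copy share difference ran from -0.12 points, without Alyref 1, to 11.2 points.

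With the numbers as a replicate block, 31 genes were higher and 41 lower in Alyref than in Control, and GOLGA8B passed at 3.55 (edgeR adjusted p 0.0459). In the block 0 genes passed exon against intron, and for last exon against rest 985 were higher and 0 lower. The block changed no other call for the pair. The cause of these changes was not tested. Depth limits all Nxf1 and Control values, which rest on 17 and 5 tags.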
